A study of Mus musculus with 16 samples.

Results

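The 8 genes Pou5f1, Sox2, Nanog, Utf1, Dppa2, Dppa4, Dppa5a and Tdh, which mark undifferentiated mouse pluripotent cells, were followed by RNA-seq across 16 stem cell lines. They were chosen by gene name, and all 8 were found among the 22552 gene names of the expression table. The AN lines were embryonic stem cells derived by nuclear transfer (ntESCs), and the AI lines were induced pluripotent stem cells (iPSCs) obtained by adding doxycycline. Both kinds came from adipocyte progenitor cells (APCs) of the same secondary reprogramming system, so all lines carried the 129-M2rtTA background and the same genomic insertions of doxycycline-inducible factors. Each line is 1 clone with 1 library, grown in ES medium with serum and leukemia inhibitory factor. The study sorted the lines by tetraploid complementation, in which the injected cells must form the whole mouse, into fully (F) and partially (P) reprogrammed lines. AN1, AN9, AN15 and AN20 made up AN F, at passage 6 or 7, while AN2, AN3, AN5, AN6 and AN7 made up AN P, at passage 5 to 7. The AI F group held AI3, AI7 and AI10, at passage 7, and GS32, at passage 13. The AI P group held AI9, at passage 7, GS4, at passage 17, and GS9, at passage 6. The 3 GS lines had been identified in earlier work, and the other AI lines were newly derived. For GS9 and GS32 the source label names GS4, in conflict with the title, so the titles were followed.

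Pou5f1 (also called Oct4) encodes a POU domain transcription factor, and Sox2 encodes an HMG box factor that binds DNA together with it on composite sites. With the homeodomain factor Nanog they form the core circuit that keeps embryonic stem cells undifferentiated. Utf1 encodes a chromatin-associated protein of undifferentiated cells. Dppa2 and Dppa4 encode a pair of SAP domain nuclear proteins that work together and activate genes of the early embryo, while Dppa5a encodes a small KH domain protein of pluripotent cells. Tdh encodes threonine dehydrogenase, the mitochondrial enzyme by which mouse embryonic stem cells break down threonine to glycine for the folate pathway.

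In the mm9 build, Pou5f1 lies at chr17:35642982-35647721 and Sox2 at chr3:34548927-34551383, both on the forward strand. The Sox2 gene lies within the long noncoding gene Sox2ot on the same strand, and Sox2ot itself was at most at 0.707 FPKM, in GS9. Nanog lies at chr6:122657507-122664651 and Utf1 at chr7:147129688-147131011, also on the forward strand. Dppa4, at chr16:48283848-48294405, and Dppa2, at chr16:48310590-48319836, are neighbours on the forward strand, 16184 bases apart with no annotated gene between them. Dppa5a, at chr9:78214859-78215984, and Tdh, at chr14:64111184-64127929, are on the reverse strand. Tdh overlaps the noncoding gene Gm17232 on the opposite strand.

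Several of the genes have near-copies elsewhere in the genome, which bears on how exactly 50-base reads can be assigned. Of all 50-base windows of the longest transcript, the share found with up to 2 mismatches elsewhere was 92.5% for Dppa5a, 86.8% for Dppa4, 78.8% for Dppa2 and 62.7% for Tdh. It was 50.3% for Nanog and 27.0% for Pou5f1. No window of Sox2 or Utf1 had such a match. Exact matches elsewhere took 61.2% of the Dppa5a windows, 54.9% of the Dppa2 windows and 47.7% of the Dppa4 windows. They took 25.9% of the Pou5f1 windows, 18.6% of the Nanog windows and 15.6% of the Tdh windows. The levels of these 6 genes are therefore less certain than those of Sox2 and Utf1. Nanogpd, a Nanog pseudogene that the table lists as a gene of its own, ranged from 12.6 FPKM in GS9 to 42.6 FPKM in AN9.

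The study's quantitative PCR primers for the core factors are given because their targets place the transcripts in the genome. The Pou5f1 pair lies at chr17:35643055-35643073 and chr17:35643176-35643194 and bounds a product of 140 bases, and its forward primer has 2 exact matches in the genome. The Nanog pair lies at chr6:122657812-122657832 and chr6:122657889-122657911, bounds 100 bases and has 1 exact match for each primer.
Pou5f1 forward primer: acctggcttcagacttcgc
Pou5f1 reverse primer: tgagcctggtccgattcca
Nanog forward primer: tcttcctggtccccacagttt
Nanog reverse primer: gcaagaatagttctcgggatgaa

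Promoter windows from 250 bases before to 50 bases after each annotated start were taken from RefSeq in the GRCm38.p6 build, where 4 of the 8 genes had an entry (Pou5f1, Sox2, Nanog and Utf1). They are shown for Nanog and Sox2, the genes whose windows hold the octamer core. Both strands were searched for the octamer core ATGCAAA, bound by POU factors, for CATTGT, bound by Sox factors, and for a composite of both, in which 1 base of any kind stands between CATTGT and ATGCAAA, so that it contains the other 2 motifs. The octamer core was found in 4.63% of 32851 promoter windows and CATTGT in 12.6%. The composite was found in 2 windows (0.00609%), which are the windows of the 2 annotated Nanog starts. These 2 windows overlap and hold the same site, so they count 1 occurrence. Capitals mark the composite in the Nanog window, read there on the reverse strand, which begins 75 bases before the start, and the octamer core in the Sox2 window, which begins 99 bases before the start. CATTGT was also found in 1 of the 2 Pou5f1 windows and not in the Sox2 or Utf1 windows. Neither the octamer core nor the composite was found in the Pou5f1 or Utf1 windows.
Nanog promoter, chr6:122707239-122707538, forward strand: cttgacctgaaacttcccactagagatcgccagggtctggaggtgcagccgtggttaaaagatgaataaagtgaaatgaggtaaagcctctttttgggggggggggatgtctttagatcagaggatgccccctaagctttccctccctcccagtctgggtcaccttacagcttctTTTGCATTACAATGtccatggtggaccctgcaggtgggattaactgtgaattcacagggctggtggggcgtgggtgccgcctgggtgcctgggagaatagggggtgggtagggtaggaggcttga
Sox2 promoter, chr3:34649745-34650044, forward strand: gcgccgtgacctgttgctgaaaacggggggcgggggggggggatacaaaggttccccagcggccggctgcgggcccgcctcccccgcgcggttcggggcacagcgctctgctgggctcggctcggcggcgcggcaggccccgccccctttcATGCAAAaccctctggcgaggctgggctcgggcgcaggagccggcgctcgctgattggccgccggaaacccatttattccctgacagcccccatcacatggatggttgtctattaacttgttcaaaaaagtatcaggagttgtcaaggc

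By their mean over the 16 lines, all 8 genes were among the more abundant transcripts. Levels are given as FPKM, reads scaled by transcript length and library size, and were compared as log2(FPKM + 1). Over the 16 lines the mean level was highest for Dppa5a, at 1212 ± 259 FPKM (SD), which ranked 107 of the 13185 genes tested. Pou5f1 followed at 829.3 ± 153 FPKM, then Sox2 at 202 ± 33.7, Utf1 at 177 ± 44.4, Tdh at 100.3 ± 22.4, Nanog at 91.2 ± 18.4, Dppa4 at 86.4 ± 29.0 and Dppa2 at 66.4 ± 23.9 FPKM. The lowest of these means, that of Dppa2, was at the 88.3 percentile of all tested genes. In this order the neighbours Sox2 and Utf1 lay within 1 SD of each other, as did Tdh, Nanog, Dppa4 and Dppa2, each with the next.

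The genes differed in how evenly the lines expressed them. On the log2 scale the SD over the 16 lines was 0.23 for Sox2 and 0.25 for Pou5f1, close to the median of 0.21 over all tested genes. It was 0.54 for Dppa2 and 0.48 for Dppa4, the 95.4 and 93.8 percentiles of tested genes, and 0.31 to 0.37 for Nanog, Utf1, Dppa5a and Tdh. The ratio of the highest to the lowest line was 5.24 for Dppa2, 3.73 for Dppa4, 2.74 for Nanog and 1.86 for Sox2. Sox2 and Pou5f1 thus varied least among the 8 and the neighbours Dppa2 and Dppa4 most.

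**Figure D1:**
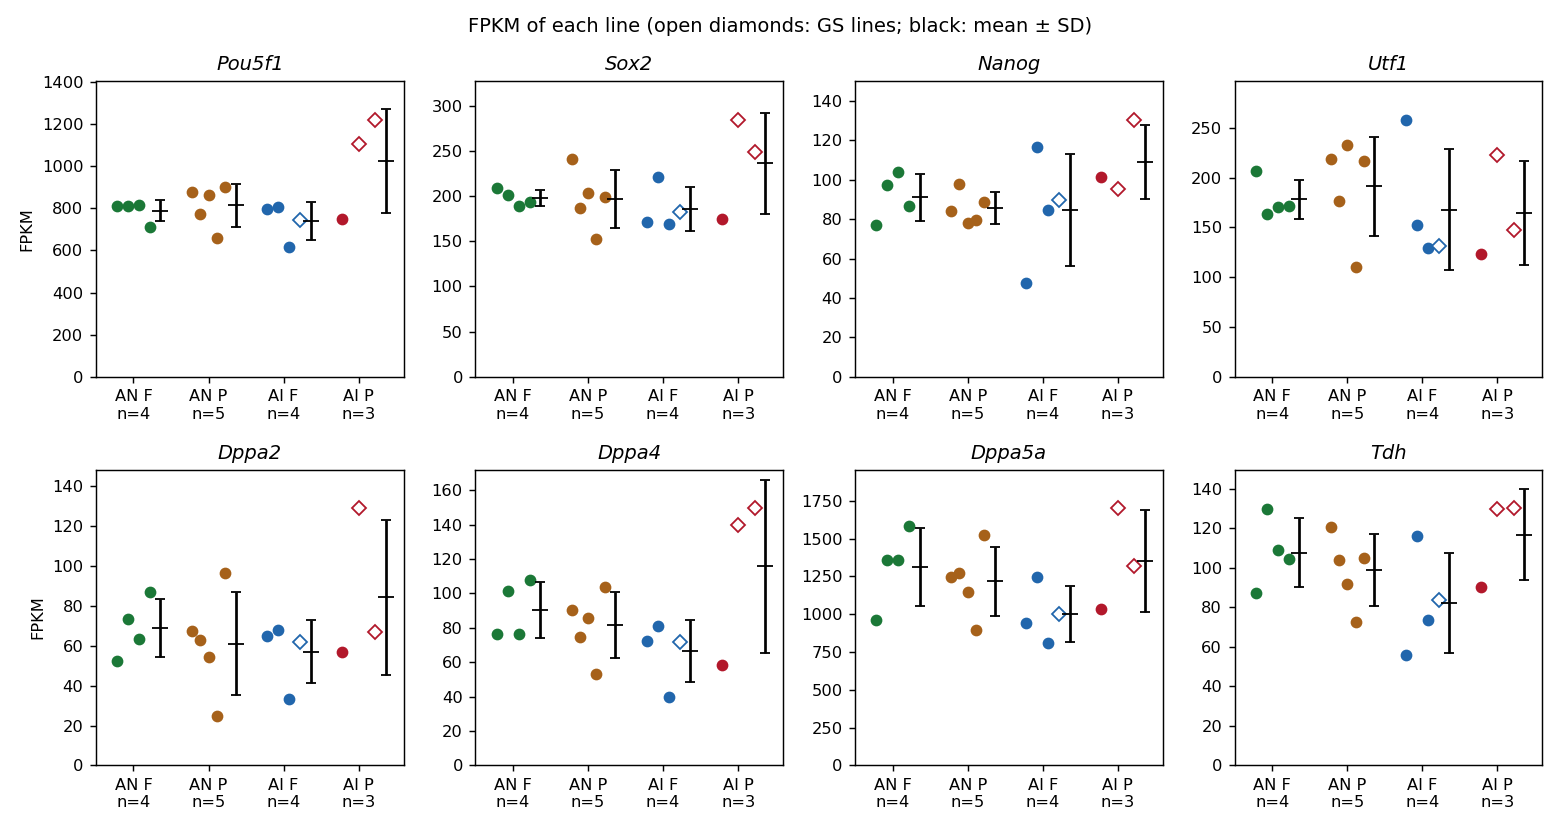
FPKM of the 8 genes in each of the 16 lines, with 1 point per line, open diamonds for the GS lines and the mean ± SD of each group in black. All 4 groups overlap for every gene, and GS4 and GS9 stand at the top of the AI P group for Pou5f1, Sox2, Dppa4 and Tdh.

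The first question was whether fully and partially reprogrammed ntESC lines differ in these genes. Pou5f1 was at 814, 813, 818 and 712 FPKM in AN1, AN9, AN15 and AN20 (AN F), and at 879, 771, 862, 657 and 903 FPKM in AN2, AN3, AN5, AN6 and AN7 (AN P). Sox2 was at 208, 201, 189 and 193 FPKM in AN F and at 241, 187, 203, 153 and 199 FPKM in AN P, in the same order of lines. Nanog was at 76.8, 97.3, 104 and 86.5 FPKM in AN F and at 84.1, 98.0, 78.1, 79.4 and 88.9 FPKM in AN P. For all 3 core factors the AN F and AN P values overlapped, and AN6 was the lowest AN P line for Pou5f1 and Sox2.

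Utf1 was at 207, 163, 171 and 172 FPKM in AN F and at 219, 177, 233, 111 and 217 FPKM in AN P. Dppa2 was at 52.5, 73.2, 63.3 and 86.7 FPKM in AN F and at 67.3, 62.6, 54.2, 24.6 and 96.5 FPKM in AN P. Dppa4 was at 76.2, 101, 76.1 and 108 FPKM in AN F and at 90.4, 74.9, 85.5, 53.0 and 104 FPKM in AN P. In each of these genes AN6 was the lowest of the 9 AN lines, and for Dppa2 and Dppa4 the AN P lines held both a low line (AN6) and a high line (AN7). Dppa5a was at 961, 1356, 1358 and 1581 FPKM in AN F and at 1245, 1273, 1147, 897 and 1523 FPKM in AN P. Tdh was at 87.4, 129.8, 109 and 104 FPKM in AN F and at 121, 104, 91.7, 72.3 and 105 FPKM in AN P. The groups overlapped for both genes, with AN6 again the lowest line.

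Between AN F and AN P, 0 of the 8 genes passed an adjusted p of 0.05 in limma, as did 0 of the 13185 tested genes (0%). At an unadjusted p under 0.05 there were 792 genes (6.01%) and none of the 8. None of the 8 was free of overlap between AN F and AN P, where 0.584% of all tested genes were higher in AN F without overlap and 0.713% were lower. The log2 difference was above 0 for 6 of the 8 genes, beside 46.2% of all tested genes, and its median over the 8 was 0.10, beside -0.01 over all tested genes. It was -0.04 (95% confidence interval -0.27 to 0.20) for Pou5f1, 0.02 (-0.24 to 0.28) for Sox2 and 0.08 (-0.15 to 0.31) for Nanog. For these core factors no interval reached further than 0.31 from 0. The intervals were wider for Utf1, at -0.06 (-0.52 to 0.40), and for Dppa2, at 0.27 (-0.48 to 1.02). Dppa4 was at 0.16 (-0.27 to 0.59), Dppa5a at 0.11 (-0.29 to 0.50) and Tdh at 0.13 (-0.22 to 0.48). The exact permutation p-values, two-sided, lay between 0.476 for Tdh and 0.841 for Sox2 and Utf1, where the smallest p the 9 lines allow is 0.0159. Without AN6 the Dppa2 difference was -0.02 in place of 0.27.

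AN6 also stood apart in genes of other cell types. Its summed level of 11 trophoblast markers was 1181 FPKM, against 91.0 to 293 FPKM in the AN F lines, mostly from the keratins Krt8 (662 FPKM) and Krt18 (469 FPKM), while the trophoblast factor Elf5 was at 0.0791 FPKM. T (Brachyury), a factor of the primitive streak, was at 257 FPKM in AN6, the highest of the 16 lines, and at 174 FPKM in AI10, the other line in which all 8 genes were below their mean. The part of these cells or states in the low values of AN6 and AI10 was not tested, and in bulk RNA fewer cells of a type and less RNA per cell cannot be told apart.

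The same question was asked of the iPSC lines, where the partially reprogrammed group had the higher mean for 7 of the 8 genes. Pou5f1 was at 799, 806, 615 and 743 FPKM in AI3, AI7, AI10 and GS32 (AI F), and at 748, 1106 and 1222 FPKM in AI9, GS4 and GS9 (AI P). Sox2 was at 171, 221, 169 and 182 FPKM in AI F and at 175, 284 and 249 FPKM in AI P. Both genes were higher in GS4 and GS9 than in any other of the 16 lines, while AI9 lay among the AI F lines. The mRNA of the reprogramming insertions cannot be told apart from the endogenous Pou5f1 and Sox2 in these values where it shares their sequence.

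Dppa4 showed the same pattern, at 72.5, 81.3, 40.0 and 71.9 FPKM in AI F and at 58.1, 139.7 and 149 FPKM in AI P. Dppa2 was at 64.9, 67.8, 33.5 and 61.9 FPKM in AI F and at 57.0, 129 and 67.0 FPKM in AI P, so that GS4 alone was high. Tdh was at 55.7, 116, 73.8 and 83.9 FPKM in AI F and at 90.4, 129.9 and 130.1 FPKM in AI P. The Tdh values of GS4 and GS9 were the highest of the 16 lines, although AN9 came close at 129.8 FPKM. Dppa5a was at 939, 1247, 811 and 1002 FPKM in AI F and at 1033, 1699.6 and 1321 FPKM in AI P. Nanog was at 47.7, 116, 84.6 and 89.9 FPKM in AI F and at 102, 95.4 and 131 FPKM in AI P. AI3 had the lowest Nanog and the lowest Tdh of all lines. Utf1 was at 258, 152, 129 and 132 FPKM in AI F and at 123, 223 and 147 FPKM in AI P, and AI3, lowest for Nanog, was here the highest line.

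Between AI F and AI P, 0 of the 8 genes and 0 of the 13185 tested genes (0%) passed an adjusted p of 0.05 in limma. At an unadjusted p under 0.05 there were 1025 genes (7.77%) and none of the 8. All 8 overlapped between the groups, where 1.69% of all tested genes were higher in AI F without overlap and 3.19% lower. The log2 difference, AI F minus AI P, was below 0 for 7 of the 8 genes, beside 55.9% of all tested genes, with a median of -0.43 beside -0.04 over all tested genes. It was -0.72 (SE 0.38, adjusted p = 0.521) for Dppa4, -0.53 (SE 0.25, adjusted p = 0.521) for Tdh and -0.45 (SE 0.21, adjusted p = 0.521) for Pou5f1. The difference was -0.51 for Dppa2, -0.42 for both Nanog and Dppa5a, -0.32 for Sox2 and 0.01 for Utf1. Their 95% intervals all held 0, from -1.62 to 0.17 for Dppa4 and from -0.76 to 0.12 for Sox2. Leaving out 1 line at a time moved several of these by over 1.5 times: the nearest to 0 were -0.16 for Dppa2 and -0.18 for Sox2, both without GS4, and -0.17 for Nanog, without AI3, while Dppa4 reached -1.16 without AI9. The exact permutation p-values, two-sided, were between 0.114 for Dppa5a and Tdh and 0.800 for Utf1, and 4 against 3 lines cannot give a p under 0.0571.

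Within AI P, AI9 was below both GS4 and GS9 for 7 genes, all but Nanog. AI9, the newly derived AI P line, was inside the range of the new AI F lines AI3, AI7 and AI10 for 7 of the 8 genes and below it for Utf1. Among the new lines alone the log2 difference of AI F to AI9 was 0.09 for Dppa4, 0.08 for Sox2 and -0.03 for Pou5f1, so that these 3 were near 0 without the GS lines. It was -0.07 for Dppa5a, -0.10 for Dppa2, -0.21 for Tdh, -0.38 for Nanog and 0.48 for Utf1, and the Nanog value was close to that of all AI lines. Among the GS lines the difference of GS32 to the mean of GS4 and GS9 was -0.997 for Dppa4, -0.65 for Pou5f1, -0.63 for Tdh, -0.54 for Sox2 and -0.31 for Nanog. Each of these comparisons has a single line on one side, so the spread there is unknown. By passage, GS4 was at 17, GS9 at 6 and GS32, with 743 FPKM of Pou5f1, at 13. The part of passage in the values of GS4 and GS9 was not tested. GS4 and GS9 were both above the other 14 lines for Pou5f1, Sox2, Dppa4 and Tdh, and for 854 of all tested genes (6.48%).

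**Figure D2:**
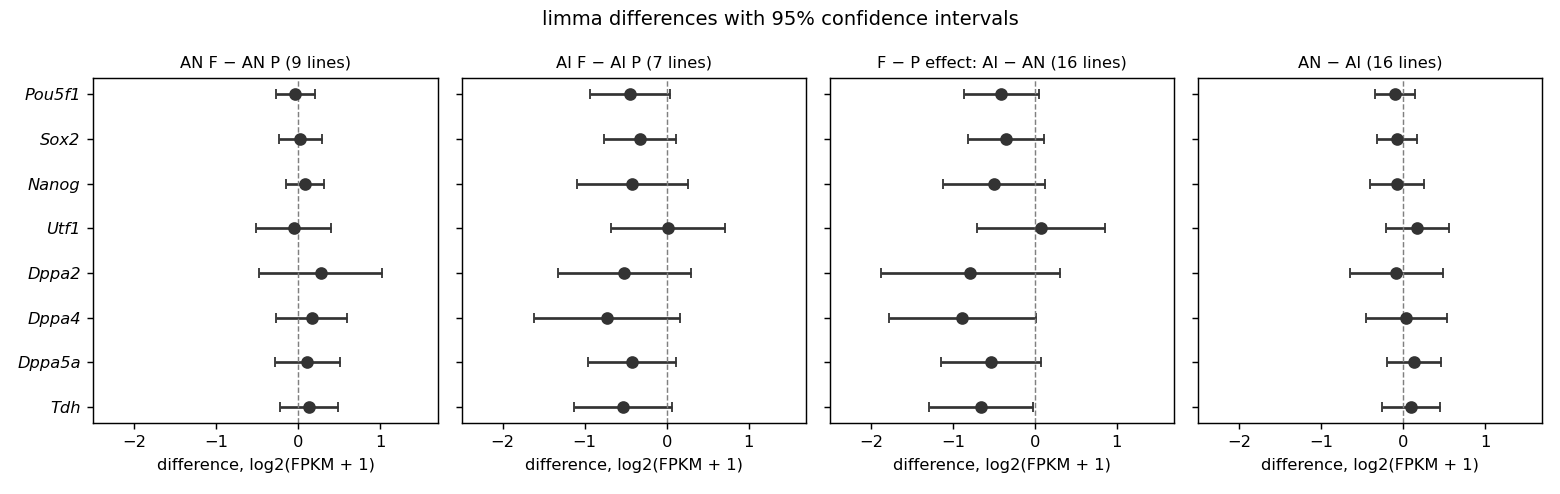
Differences of mean log2(FPKM + 1) for the 8 genes with 95% confidence intervals from limma, in 4 comparisons, with 0 dashed. The AN F to AN P differences lie near 0, 7 of 8 AI F to AI P differences lie below 0, and the interval leaves out 0 only for Tdh in the difference between the effects.

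Whether the F to P difference itself differed between iPSC and ntESC lines was tested as an interaction over the 16 lines. None of the 8 genes and none of the 13185 tested genes (0%) passed an adjusted p of 0.05, and 2194 genes (16.6%) had an unadjusted p under 0.05, among them 1 of the 8, Tdh. The difference, AI minus AN, was below 0 for 7 of the 8 genes, beside 54.6% of all tested genes, with a median of -0.52 beside -0.04. It was -0.89 for Dppa4 (SE 0.42, unadjusted p = 0.0519, adjusted p = 0.302) and -0.66 for Tdh (SE 0.30, unadjusted p = 0.0439, adjusted p = 0.295). The count of 1 in 8 is near that share of all tested genes. The exact permutation p was 0.0798 for Tdh and 0.118 for Dppa4. Labels F and P were exchanged within each kind, so this p refers to no F to P difference in either kind, not to equal differences. Without AI9, which leaves GS4 and GS9 as the AI P group, Dppa4 was at -1.32 (SE 0.35, adjusted p = 0.047 in limma). The number of genes passing then went from 0 to 651 of the 13185 tested, and Dppa4 was 1 of these.

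Over all lines, with the kind of line as a term, F lay below P for all 8 genes, beside 53.7% of all tested genes, and 0 of the 8 and 0 of 13185 genes (0%) passed, with 827 genes (6.27%) and none of the 8 at an unadjusted p under 0.05. The log2 difference in limma ranged from -0.22 for Dppa4 and Pou5f1 to -0.03 for Utf1. The exact permutation test used another statistic, the AN and AI differences with equal weight, which was -0.24 for Pou5f1. Its p was lowest for Pou5f1, at 0.107. These values share their lines with the AN and AI comparisons. Without GS4, GS9 and GS32 the difference was above 0 for Sox2, Utf1, Dppa2, Dppa4, Dppa5a and Tdh, at 0.04 to 0.18.

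The ntESC and iPSC lines were also compared with each other. With the reprogramming state as a term, the log2 difference of AN to AI was above 0 for 4 genes and below 0 for 4, beside 51.5% and 48.5% of all tested genes, from -0.10 for Pou5f1 (95% interval -0.35 to 0.15) to 0.18 for Utf1 (-0.20 to 0.55). None of the 8 and none of 13185 genes (0%) passed an adjusted p of 0.05, with 437 genes (3.31%) and none of the 8 at an unadjusted p under 0.05. Exact permutation p-values were between 0.371 for Utf1 and 0.925 for Dppa4. These tests gave the differences within F and within P equal weight, so their statistic is not the limma difference. For 7 genes AI P had the highest group mean, and AI F the lowest. For Utf1 the order of the means was AN P at 191, AN F at 178, AI F at 168 and AI P at 165 FPKM. Neighbouring groups overlapped in every case.

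The lines could be described by how many of the 8 genes lay above their mean over all lines. GS4 was above the mean for 8 of 8 genes and GS9 for 7, with a mean deviation of 0.52 and 0.34 on the log2 scale. GS4 was the highest of all lines for Sox2, Dppa2 and Dppa5a, and GS9 for Pou5f1, Nanog, Dppa4 and Tdh. AN6 and AI10 were below the mean for 8 of 8 genes, by 0.53 and 0.50 on average, and each was the lowest line for 3. AN6 was a P line and AI10 an F line, so lines at the low end came from both states. AN7, a P line, was the highest ntESC line, with a mean deviation of 0.24.

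**Figure D3:**
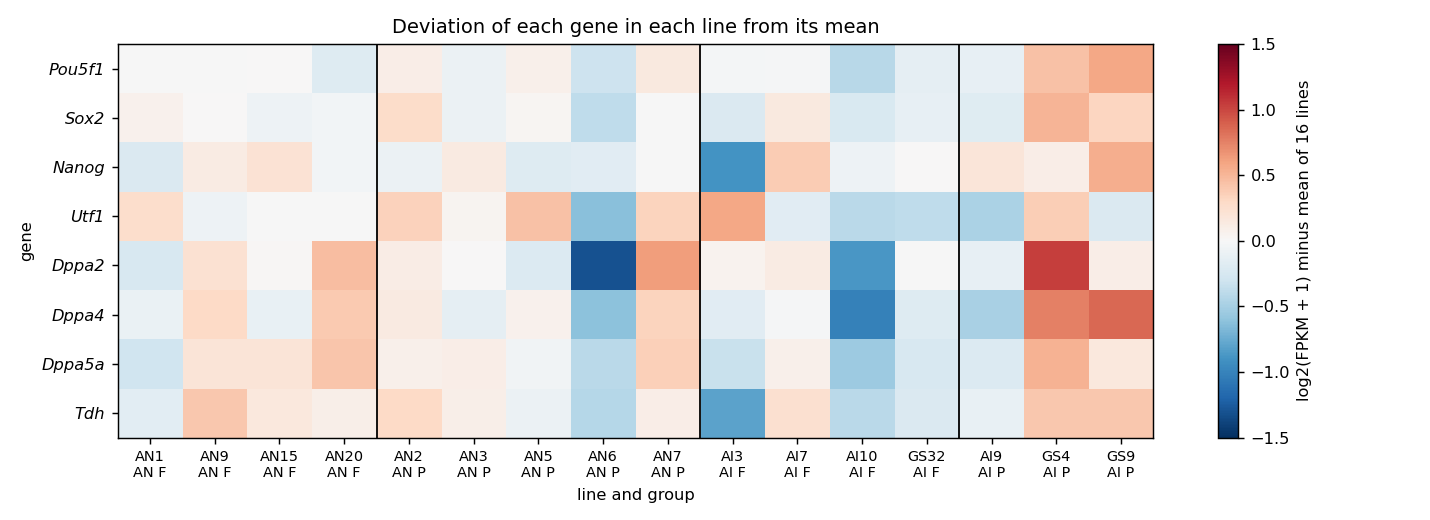
Deviation of log2(FPKM + 1) of each gene in each line from the mean of the 16 lines, in red above and in blue below the mean, with black lines between groups. GS4 and GS9 are above the mean for 8 and 7 genes, and AN6 and AI10 are below it for all 8.

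The lines carried different amounts of feeder RNA markers. Of 20 markers of feeder fibroblasts, 20 had a log2 difference above 0 in AI F against AI P, with a median of 0.90. Over all tested genes 55.9% were below 0 there, with a median of -0.04. In AN F against AN P, 3 of the 20 were above 0, with a median of -0.23, beside 46.2% and -0.01 over all tested genes. None of the 20 markers passed an adjusted p of 0.05. Their summed level was lowest in GS4, at 563 FPKM, and in GS9, at 682 FPKM, against 1229 to 2365 in AI F, 2007 in AI9, 955 to 1762 in AN F and 1200.3 to 2278 in AN P. The most abundant were Tagln, Acta2 and Col1a1, and none of the 20 was listed at 0 in any line. Tagln and Acta2 were lowest in GS4 and Col1a1 in GS9, but not every marker followed the sum. Dcn was highest of all lines in GS4, at 11.6 FPKM. Lum was at 2.79 FPKM in GS4, above its mean of 2.04 FPKM. Tagln in GS9, at 348 FPKM, was above AN9 (325 FPKM) and AN20 (264 FPKM). AN6 had the highest Tagln, at 866 FPKM, but 75.0 FPKM of Col1a1. AI10, the AI line lowest for Pou5f1 and Dppa4, had 2199 FPKM. GS4 and GS9 were therefore the lines with the highest values of Pou5f1 and Sox2 and the lowest feeder marker sums, while AI7, with 1229 FPKM, had 116 FPKM of Nanog and of Tdh. The part of feeder RNA in the AI difference was not tested.

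**Figure D4:**
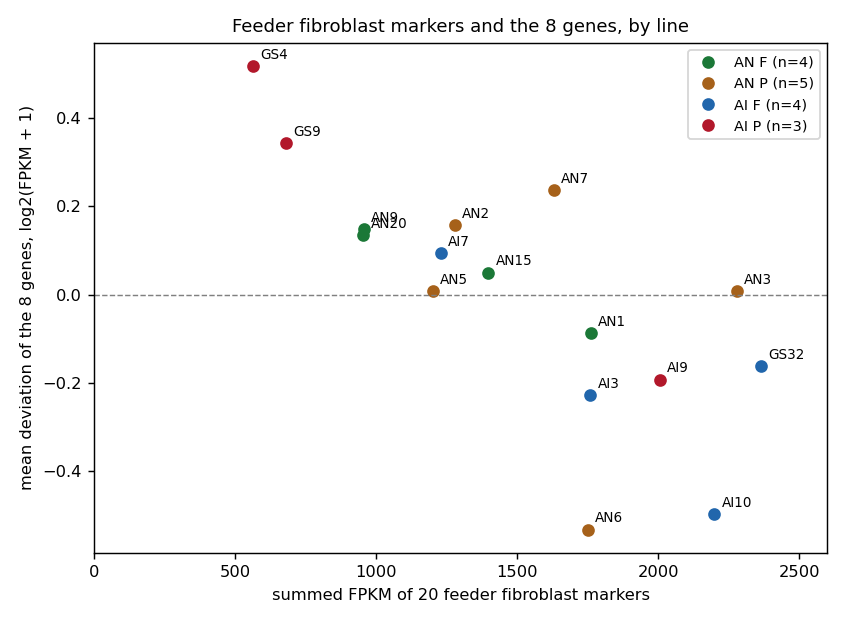
Summed FPKM of 20 feeder fibroblast markers and the mean deviation of the 8 genes on the log2 scale, with 1 point per line, coloured by group. GS4 and GS9 have the lowest sums (563 and 682 FPKM) and the highest deviations (0.52 and 0.34), and AN6 and AI10 the lowest deviations.

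Markers of other cell types were summed in the same way. The summed level of 15 extraembryonic endoderm markers was 318 FPKM in GS4, 314 FPKM in GS9 and 705 FPKM in AI9, against 463 to 899 in AI F, led by Sparc, Lamb1 and Col4a1, of which fibroblasts also express Sparc and Col4a1. The defining genes Afp and Ttr were at 0 in some lines, with highest levels of 0.0417 and 0.0381 FPKM. The 10 adipocyte progenitor markers, of the donor cell type, summed to 21.1 to 41.7 FPKM in all lines, led by Ly6a, Zfp423 and Cd34, and the fat droplet gene Plin1 was at 0 in some lines. The labelled cell type was checked with 15 mouse ES cell markers, whose sum ranged from 1412 FPKM in AN6 to 2731 FPKM in GS4. Of these, 14 passed the filter on low levels, and Fut4, a fucosyltransferase gene, had a mean of 0.385 FPKM.

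The 8 genes varied together across lines in part. Pearson's r of log2(FPKM + 1) was above 0 for 27 of the 28 pairs, with a median of 0.61. The p of r, from 100000 permutations and adjusted over the 28 pairs, was under 0.05 for 17 pairs, and for 14 of them so was that of Spearman's rho. All values of a line come from 1 library, so its composition enters every gene. The share of such pairs among all tested genes was not computed, so these counts are not read as a trait of the 8 genes.

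Pou5f1 varied with Dppa4 (r = 0.86, rho = 0.75, adjusted p = 4.2e-04 and 0.00398, permutation) and with Sox2 (r = 0.85, rho = 0.82, adjusted p = 4.2e-04 and 0.00101, permutation). Without GS4 and GS9, the lines farthest from the median of Pou5f1, r was 0.75 and 0.73. Within AN and AI lines r was 0.55 and 0.98 for Pou5f1 with Dppa4, and 0.79 and 0.87 for Pou5f1 with Sox2. Dppa2 varied with its neighbour Dppa4 (r = 0.80, rho = 0.79, adjusted p = 0.00154 and 0.00189, permutation), at 0.93 within AN and 0.82 within AI, and at 0.77 without AN6 and GS4. Dppa2 with Dppa5a reached r = 0.85 (rho = 0.84, adjusted p = 4.2e-04 and 0.00101, permutation), and 0.84 without AN6 and GS4. For the last pair r was 0.90 within AN and 0.90 within AI, and the values within a kind of line were not tested.

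Nanog and Utf1 stood apart from this shared pattern. Nanog varied with Tdh (r = 0.78, rho = 0.63, adjusted p = 0.00336 and 0.0273, permutation), where r without AI3 and GS9 was 0.52, at 0.65 within AN and 0.87 within AI. With Pou5f1 it reached r = 0.35 (rho = 0.21, adjusted p = 0.177 and 0.453, permutation), and r was 0.01 without GS4 and GS9. By r, Utf1 passed with 1 of 7 partners, Dppa2 (0.58, adjusted p = 0.0310, permutation), where rho did not pass, and by rho it passed with Pou5f1 (0.56, adjusted p = 0.0482, permutation), where r did not. Utf1 and Nanog were the only pair with r below 0, at -0.47 (rho = -0.43, adjusted p = 0.0927 and 0.130, permutation), and r was -0.20 without AI3 and GS9. Within AN lines, however, r of Utf1 was 0.87 with Pou5f1 and 0.84 with Sox2, against 0.38 and 0.30 within AI. With Dppa5a and Tdh it was 0.33 and 0.40 within AN. Without GS4 and GS9, r of Utf1 with Pou5f1 was 0.75.

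**Figure D5:**
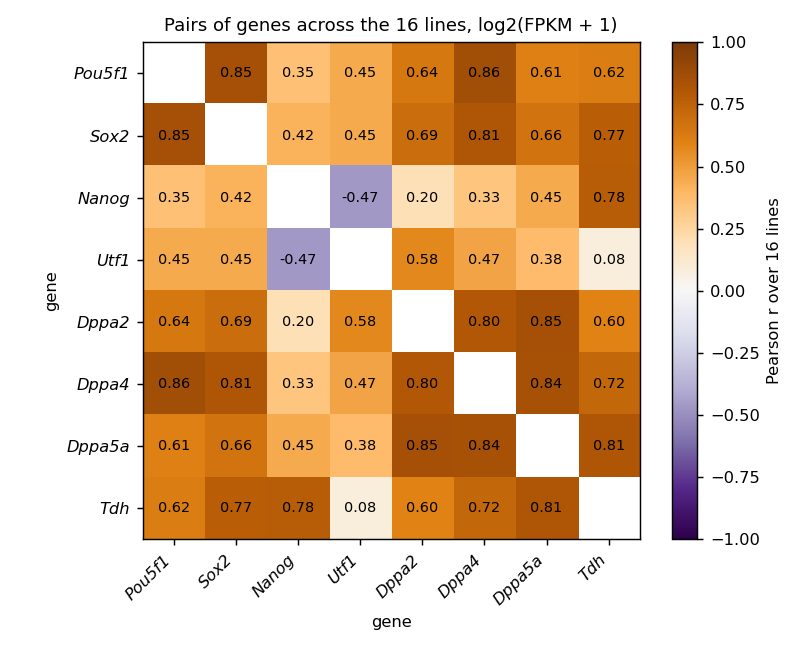
Pearson's r of log2(FPKM + 1) between the 8 genes over the 16 lines, with each value written in its cell. Pou5f1 with Dppa4 (0.86) and with Sox2 (0.85) are the highest, and Nanog with Utf1 (-0.47) is the only value below 0.

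Among the 8426 genes with a mean of at least 5 FPKM, the genes nearest to each of the 8 by r over the 16 lines are given as a description. Dnmt3l, the cofactor of de novo DNA methylation, was nearest to Dppa2 (r = 0.96), followed by the corepressor Trim28 (0.95) and 4930548H24Rik (0.95). Dnmt3l was at 279 FPKM in GS4 and 35.8 FPKM in AN6, the lines at the ends of the Dppa2 range. Senp3, a SUMO protease, was nearest to Dppa4 (0.95), then Nhedc1 and Cdc37l1 (both 0.94), and Pigl, Enox1 and Cdyl2 were nearest to Dppa5a (0.96, 0.95 and 0.95). For Pou5f1 these were the ATP synthase subunit gene Atp5a1 (0.94), the splicing factor gene Sf3b2 (0.93) and Rrp9 (0.93), and for Sox2 they were Surf6, Cnpy1 and Rpa2 (0.93, 0.93 and 0.91). Zscan10, a zinc finger gene of pluripotent cells, was nearest to Utf1 (0.94), then Ercc2 (0.93) and Ltbp4 (0.92). Nanog had the weakest neighbours, Mir363, Atpbd4 and Decr2, at 0.85, 0.82 and 0.80, and Tdh had Rbbp5, Lrrc34 and Klf2, at 0.91, 0.90 and 0.90.

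Partners and targets of the core circuit were counted in the same way. Of 25 such genes, 22 had a log2 difference above 0 in AN F against AN P, with a median of 0.18, and 7 did in AI F against AI P, with a median of -0.13, beside medians of -0.01 and -0.04 over all tested genes. In AI the other 18 were below 0. Over all tested genes 46.2% were above 0 in AN and 55.9% were below 0 in AI. The AN P line AN6 was the lowest of all lines for each of the 25 except Klf2, Klf4, Nr5a2, Tdgf1, Lefty1, Lefty2 and Stat3. The part of this single line in the AN count and median was not tested. None of the 25 genes passed an adjusted p of 0.05 in limma. At an unadjusted p under 0.05 there was Rif1 in AN, at 0.54 (limma adjusted p = 0.636), and in AI there were Klf2, at -0.81, and Tdgf1, at -0.71 (limma adjusted p = 0.521 for both). These counts, 1 and 2 of 25, are near the 6.01% and 7.77% of all tested genes at the same threshold. Klf2, a factor of the naive state, was at 102 FPKM in GS4, 75.6 in GS9 and 52.5 in AI9, against 29.4 to 59.7 in AI F. Tdgf1, a Nodal coreceptor, was at 1001 and 1134 FPKM in GS4 and GS9, at 543 FPKM in AI9 and at 506 to 555 FPKM in AI F. Both AI9 values thus fell among those of AI F.

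Of 4 other Dppa genes, 2 were found among the gene names, Dppa1 and Dppa3, so Dppa5b and Dppa5c could not be assessed. Only Dppa3, a maternal factor that protects DNA methylation after fertilization, was expressed above the filter. Dppa3 was at 153 FPKM in GS9, against 28.9 to 72.0 in AI F, and at 58.8 in GS4 and 51.1 in AI9, with a log2 difference of -0.70 (limma adjusted p = 0.527) in AI and 0.08 in AN. Dppa1 reached 0.0160 FPKM at most. Genes of the 2-cell stage that depend on Dppa2 and Dppa4 were low, and 9 of 19 found passed the filter. In AN 9 of 9 were above 0 (median 0.25), beside 46.2% of all tested genes (median -0.01). In AI 9 of 9 were below 0 (median -0.87), beside 55.9% of all tested genes (median -0.04). None passed an adjusted p. The 9 include the related Zscan4a, Zscan4c, Zscan4d, Zscan4e and Zscan4f, so they are not 9 separate observations. GS4 was the highest of all lines for each of the 9. Zscan4f was at 7.73 FPKM in GS4, 0.707 in GS9 and 0.833 in AI9. The part of GS4 in the AI count was not tested. Zscan4c, a multicopy gene whose reads may be split among near-identical copies, was at 12.8 FPKM in GS4, the line highest for Dppa2, and at 1.62 in GS9 and 1.83 in AI9, against 0.219 to 2.096 in AI F.

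Around Tdh, 20 genes of threonine, glycine and folate metabolism were tested, with none past an adjusted p. In AN 15 were above 0 (median 0.06), beside 46.2% of all tested genes (median -0.01). In AI 4 were above 0 and 16 below (median -0.14), beside 55.9% of all tested genes below 0 (median -0.04). Gcsh, the H protein of the glycine cleavage system, had the smallest p of these in AI, at -0.57 (limma adjusted p = 0.521), and was at 0.01 in AN. Gldc and Amt, of the same system, were at -0.37 and -0.33 in AI. Of 16 relatives of Sox2 and Pou5f1, 11 passed the filter and none an adjusted p. Sox15 was at -0.86 in AI (limma adjusted p = 0.521), with 13.98 and 15.8 FPKM in GS4 and GS9 and 9.23 in AI9, against 5.13 to 9.57 in AI F. Sox3, which encodes a SoxB1 factor as Sox2 does, was at 0.95 in AI (limma adjusted p = 0.521), with 5.48 and 7.13 FPKM in GS4 and GS9 and 9.67 in AI9, against 9.58 to 21.9 in AI F.

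Genes of the primed state and of early lineages were counted last. Of 18 tested, 5 were above 0 in AN (median -0.03), beside 46.2% of all tested genes (median -0.01). In AI 15 were above 0 and 3 below (median 0.16), beside 55.9% of all tested genes below 0 (median -0.04). None passed an adjusted p. Sall2 was at 0.45 in AI and Nes, the nestin gene of neural progenitors, at 0.82 (limma adjusted p = 0.521 for both). T was at 5.85 FPKM in GS4, the lowest of the 16 lines, but at 103 FPKM in GS9, so the lines that shared high Pou5f1 differed in this gene.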

How the data were processed

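RNA of 16 mouse lines was sequenced as single-end reads of 50 bases. The authors mapped reads to mm9 with TopHat2 2.1.0 and calculated FPKM with Cufflinks 2.2.1, and their notes also name HTSeq with no role. The deposited FPKM were used as they are. Read counts were not analysed here, so the depth behind a value is unknown; the step between the lowest values put relative depth at 0.961 to 1.26 of AN1. FPKM summed to 661973 to 963434 per line, 15.8% to 28.6% of it from small RNA genes. Lines were matched by title, and F or P follows the study's own assignment.

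Genes with a mean of at least 0.5 FPKM (13185) were fitted as log2(FPKM + 1) with limma 3.58.1 (mean-variance trend, R 4.3.3), with Benjamini-Hochberg adjustment at 0.05. Fits used the 9 AN or 7 AI lines, or all 16 with kind, state or an interaction. The authors' Cuffdiff needs reads and was not run. The fits were tested on simulated data. Single genes had exact two-sided permutation tests (p as 2 times the smaller tail, unadjusted), with labels exchanged within kind or state for fits of 16 lines. For the interaction these tests refer to no F to P difference in either kind. Lines of a group are clones with 1 library each, so p-values rest on spread between clones together with that of culture and library. In AI this spread also holds differences of derivation and passage. All genes were named by membership, list genes by smallest p (at most 4), markers by level (3, with those at 0), and similar genes by r (3). The members and lists were chosen with earlier results of these data known. Copies were sought with BLAST 2.17.0 (at least 300 bases, 90% identity).

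Alternatives were a pseudocount of 0.1, no filter or a mean of 5 FPKM, quantile or median-ratio scaling, rescaling without small RNA genes, no trend, derivation or passage as a term, a fit of all lines, unadjusted p-values, and left-out lines. Leaving out GS4, GS9 and GS32 together, and repeating exact tests and correlations under the alternatives, were added after the data were seen.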

Additional observations from a re-analysis of the deposited data

Results flagged for a closer look

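Pou5f1 was at 712 FPKM in the AN F line AN20, while AN1, AN9 and AN15 were at 813 to 818 FPKM. The gap of AN20 to its nearest neighbour was 0.951 of the range of the group, above the 95% critical value of Dixon's test. In all, 24 groups of 4 or 5 lines were examined in this way (8 genes in AN F, AN P and AI F), and chance marks about 1 group in 20. The AI P group, with 3 lines, was not examined. AN20 was above the mean of the 16 lines for 4 of the 8 genes, with Dppa2 at 86.7, Dppa4 at 108 and Dppa5a at 1581 FPKM.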

How the results depend on the processing

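No paired analysis was possible because the numbers in the line names only name clones. Values are log2 differences unless stated; none of the 8 genes passed an adjusted p of 0.05 in any comparison, except Dppa4 in the interaction without AI9 (-1.32). Counts of genes passing went from 0 to 6 (AI) and 1 (interaction) with no filter, to 6 (AI) and 1 (AN against AI) without GS9 and GS32, to 1 (AN against AI) with derivation as a term, and to 21 (AI), 2 (AN against AI) and 7 (interaction) without GS4, GS9 and GS32. At an unadjusted p they were 792 (AN), 1025 (AI), 827 (F against P), 437 (AN against AI) and 2194 (interaction, with 1 of the 8 genes, Tdh). Pairs passing went from 17 to 11 without GS4, GS9 and GS32.

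Signs turned as follows. In F against P over all lines, Utf1 was at 0.070 with quantile normalization, and Utf1 and Dppa2 were at 0.065 and 0.022 when rescaled without small RNA genes. Dppa2 was at 0.039 with derivation as a term. In AN against AI, Nanog was at 0.025 without GS9 and GS32, Pou5f1, Sox2, Nanog and Dppa2 were at 0.071, 0.078, 0.048 and 0.19 with derivation as a term, and Sox2 and Dppa2 were at 0.021 and 0.13 with passage as a term. Without GS4, GS9 and GS32, Sox2 and Dppa4 were at 0.084 and 0.089 in AI, and Sox2, Utf1, Dppa2, Dppa4, Dppa5a and Tdh at 0.038, 0.077, 0.18, 0.14, 0.063 and 0.044 in F against P. There Pou5f1, Sox2, Nanog and Dppa2 were at 0.11, 0.11, 0.064 and 0.23 in AN against AI, and Pou5f1 and Sox2 at 0.011 and 0.061 in the interaction. The cause was not tested.

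Leaving out 1 line at a time, the counts of genes passing were 0 to 1 in AN, 0 to 5 in AI (5 without GS9), 0 in F against P, 0 to 2 in AN against AI (2 without GS9) and 0 to 651 in the interaction (651 without AI9, with 0 to 1 of the 8 genes). In AN, Pou5f1 ranged from -0.11 to 0.010, Sox2 from -0.064 to 0.10, Utf1 from -0.24 to 0.024 and Dppa2 from -0.016 to 0.47. In AI, Pou5f1 ranged from -0.66 to -0.31, Sox2 from -0.52 to -0.18, Nanog from -0.59 to -0.17, Dppa2 from -0.75 to -0.16, Dppa4 from -1.16 to -0.48, Dppa5a from -0.60 to -0.24 and Tdh from -0.71 to -0.36. Utf1 ranged from -0.21 to 0.26 in AI, from -0.12 to 0.059 in F against P and from -0.15 to 0.31 in the interaction, and Dppa2 from -0.25 to 0.11 in F against P. In AN against AI, Sox2 ranged from -0.13 to 0.015, Nanog from -0.22 to 0.011, Dppa2 from -0.23 to 0.11, Dppa4 from -0.10 to 0.20 and Tdh from -0.0057 to 0.18. Exact tests with p under 0.05 numbered 0 to 3 (0 with all lines), with Tdh in the interaction at 0.0429 without AN1, 0.0482 without AN2, 0.0397 without AI7 and 0.0466 without AI9, and Pou5f1 in F against P at 0.0384 without AN6 and 0.0497 without AI9. The others were Dppa5a (0.0347 without AN1), Nanog (0.0405 without AI7) and Dppa4 (0.0339 without AI9), all in the interaction. Pairs passing ranged from 11 (without GS4) to 20, and without AN6 Nanog and Utf1 passed (r = -0.61, adjusted p = 0.0236, permutation).

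Read depth is unknown, so precision rests on the 3 to 5 lines per group. Near-copies of Dppa5a, Dppa4, Dppa2, Tdh, Nanog and Pou5f1 limit how exactly reads were assigned. Reads of the insertions, where they share the sequence of Pou5f1 or Sox2, cannot be told apart. Within new and within GS lines, 1 side of the AI comparison is a single line.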
